A study of Homo sapiens with 12 samples.

Results

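The miR-29 and miR-30 families were followed across the miRNA PCR arrays of OCI-My5, a human multiple myeloma (MM) cell line. The members were the assays for the main arm of each family, that is hsa-miR-29a-3p, hsa-miR-29b-3p and hsa-miR-29c-3p, and hsa-miR-30a-5p, hsa-miR-30b-5p, hsa-miR-30c-5p, hsa-miR-30d-5p and hsa-miR-30e-5p. They were chosen by name as families of B cells and plasma cells, and made up 8 of the miRNA assays on the array, which holds 364 others. Each of the 12 arrays held RNA of a different condition, so that no condition had a replicate array. The question of the study was whether the level of argonaute 2 (AGO2, gene symbol EIF2C2) or treatment with lenalidomide alters the steady-state levels of miRNAs.

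The conditions were 6 treatments of 2 lines of OCI-My5. My5/LV cells were infected with the lentiviral vector alone and express a low level of cereblon (CRBN), the protein that lenalidomide binds, and My5/CRBN cells were infected with lentivirus that carries CRBN cDNA. Both lines were left un-treated, given the shRNA sh72 against EIF2C2, given EIF2C2 cDNA for overexpression, treated with 10 µM lenalidomide for 72 or 120 h (Len72hrs and Len120hrs), or given EIF2C2 cDNA together with lenalidomide for 72 h. RNA of sh72 cells was taken 3 days after treatment. The comparison array of every treatment was the un-treated array of the same line. By the labels, none of the arrays held cells given a control shRNA, the empty vector of the EIF2C2 cDNA or the solvent of lenalidomide. The effect of sh72 or EIF2C2 cDNA therefore cannot be told apart from that of a further lentiviral infection. That of lenalidomide cannot be told apart from that of its solvent. A single un-treated array per line served for both 72 and 120 h, so time in culture cannot be told apart from lenalidomide either. CRBN and EIF2C2 themselves are no miRNAs, and their levels were not measured on these arrays.

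A miRNA is cut from a hairpin precursor, and 1 or both arms of the hairpin are loaded into an argonaute protein such as AGO2. The loaded miRNA finds its mRNA targets mainly through its seed, bases 2 to 8 from its 5′ end, so that miRNAs with the same seed form a family with shared targets. miR-29 is known to repress MCL1, an anti-apoptotic protein on which myeloma cells depend. miR-30 is known to repress PRDM1, which encodes Blimp-1, the transcription factor of plasma cell differentiation.

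Mature sequences of 6 of the 8 members were taken from RefSeq (assembly GRCh38.p14). Those of hsa-miR-30b-5p and hsa-miR-30d-5p are not reported here. The 6 are shown 5′ to 3′, with the seed in capitals, because they differ within a family by few bases and outside the seed.
hsa-miR-29a-3p: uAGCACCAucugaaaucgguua
hsa-miR-29b-3p: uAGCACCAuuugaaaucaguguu
hsa-miR-29c-3p: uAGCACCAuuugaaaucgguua
hsa-miR-30a-5p: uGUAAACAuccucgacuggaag
hsa-miR-30c-5p: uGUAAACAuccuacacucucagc
hsa-miR-30e-5p: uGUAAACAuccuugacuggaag

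The 3 miR-29 members shared 1 seed, and so did the 3 miR-30 members whose sequence is shown. With positions counted from 1 at the 5′ end, hsa-miR-29a-3p and hsa-miR-29c-3p differed by C10U alone, and hsa-miR-30a-5p and hsa-miR-30e-5p by C13U alone. Between hsa-miR-30a-5p and hsa-miR-30c-5p, 5 positions differed (C13A, G14C, G18C, G19U and A20C). Whether a PCR assay also reads a family member that differs by 1 base was not tested, and values of such pairs may not be separate measurements.

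The hairpins of the members whose sequence is shown lie in pairs. Those of hsa-miR-30b-5p and hsa-miR-30d-5p are not reported here. MIR29A (chr7:130876747-130876810) and MIR29B1 (chr7:130877459-130877539) are 648 bases apart on the minus strand. MIR29C (chr1:207801852-207801939) and MIR29B2 (chr1:207802443-207802523) are 503 bases apart, within the span of the long non-coding RNA gene MIR29B2CHG. MIR30E (chr1:40754355-40754446) and MIR30C1 (chr1:40757284-40757372) are 2837 bases apart on the plus strand, within the span of NFYC, which encodes a subunit of the transcription factor NF-Y. MIR30A (chr6:71403551-71403621) and MIR30C2 (chr6:71376960-71377031) are 26519 bases apart. The mature miRNAs hsa-miR-29b-3p and hsa-miR-30c-5p each come from a pair of loci with the same mature sequence, and an assay measures the sum of both.

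All 8 members were read at low Ct on every array. The measurement of each well is the threshold cycle (Ct), the PCR cycle at which its fluorescence crosses a threshold, so that a lower Ct stands for more miRNA. Every member had a Ct under 35, the limit of detection used here, on all 12 arrays, as did 314 of all miRNA assays. The members ranked between place 7 and place 48 from the lowest Ct on each array, and their Ct lay between 16.6 for hsa-miR-29c-3p and 23.1 for hsa-miR-30d-5p. Ct values of different assays depend on their primers, so these ranks are a description and not an order of abundance.

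Levels are given below as the mean Ct of 6 small-RNA control wells (5 SNORD RNAs and RNU6) minus the Ct of the miRNA, on a log2 scale, and a log2 fold change is the difference in level between a pair of arrays. The mean Ct of the control wells ran from 18.7 to 21.9 over the arrays, and between 324 and 367 miRNAs per array had a Ct under 35. Arrays have no sequencing depth, and their number limits the precision. The SD of the 6 control wells around their mean was between 0.18 and 0.67 over all comparisons and served as the spread for a pair of arrays. Among miRNAs that mark cell types, hsa-miR-142-3p of blood cells had a Ct of 12.4 to 18.6 and hsa-miR-150-5p of lymphoid cells 19.3 to 21.9, whereas hsa-miR-155-5p, often high in lymphoid cells, had 28.9 or more. Markers of other cell types were not all near the limit of detection. The liver miRNA hsa-miR-122-5p had a Ct of 30.7 or more, but of 3 muscle miRNAs hsa-miR-1 had 18.7 to 24.2, hsa-miR-133a-3p 22.2 to 27.7 and hsa-miR-206 28.6 to 32.9. The 5 epithelial miRNAs ran from 23.5 for hsa-miR-200c-3p to 33.7 for hsa-miR-205-5p.

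After sh72, the levels of all members were lower in both lines. Both sh72 arrays were the lowest of the 12 for 8 of the 8 members, and that of My5/LV was the lowest of all for each of them. The same held for 39.8% of the 314 assays under Ct 35 on all arrays, so that the low place of the sh72 arrays was frequent on the whole array. In RNA of whole cultures, less of a miRNA per cell and fewer cells with it cannot be told apart.

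The miR-30 members are described first. The level of hsa-miR-30e-5p was 0.40 in un-treated My5/LV and 0.03 in un-treated My5/CRBN cells, and it was -1.36 and -1.22 after sh72. Its level stood at -0.05 and -0.02 with EIF2C2 cDNA, 0.29 and 0.36 after lenalidomide for 72 h, 0.58 and 0.07 after 120 h, and 0.17 and -0.33 with EIF2C2 cDNA and lenalidomide. Thus the sh72 arrays stood apart from the other 10, by 0.90 below the next lowest array, the widest such gap of the 8 members. The level of hsa-miR-30c-5p was -0.13 and -0.06 in the un-treated cells (My5/LV first, as in all pairs of values here) and -2.07 and -1.52 after sh72. It was -0.42 and 0.04 with EIF2C2 cDNA, -0.57 and -0.57 at Len72hrs, 0.21 and -0.86 at Len120hrs, and -0.21 and -0.79 with EIF2C2 cDNA and lenalidomide. For this miRNA the lines lay apart at 120 h, where My5/LV was the highest of the 12 arrays and My5/CRBN the lowest array outside sh72. The level of hsa-miR-30d-5p ranged most widely over the arrays of the 8 members, from -2.10 after sh72 to 0.93 at Len120hrs, both in My5/LV cells. For hsa-miR-30a-5p the levels were 0.21 and -0.02 un-treated, and -1.45 and -1.15 after sh72. For hsa-miR-30b-5p they were 0.60 and 0.35 un-treated, and -0.77 and -0.65 after sh72. On the other 10 arrays both stayed within 0.79 of 0.

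The sh72 arrays were also the 2 lowest for the miR-29 members, with gaps of 0.18 (hsa-miR-29a-3p), 0.30 (hsa-miR-29b-3p) and 0.34 (hsa-miR-29c-3p) to the next array. That of hsa-miR-30b-5p was 0.27, and those of the other 4 miR-30 members were 0.57 to 0.90. The level of hsa-miR-29a-3p was 0.49 and 0.25 un-treated, -0.96 and -0.73 after sh72, and -0.55 and -0.38 with EIF2C2 cDNA. It was 0.40 and 0.11 at Len72hrs, 0.81 and 0.81 at Len120hrs, and -0.07 and -0.25 with EIF2C2 cDNA and lenalidomide. The 4 arrays of cells with EIF2C2 cDNA were thus the lowest after those of sh72. The level of hsa-miR-29c-3p was 1.40 and 1.21 un-treated, -0.04 and 0.37 after sh72, and 0.76 and 0.71 with EIF2C2 cDNA. It reached 1.78 and 2.06 at Len120hrs, the highest of the 12. The level of hsa-miR-29b-3p was -0.36 and -0.57 un-treated, -1.58 and -1.19 after sh72, and -0.81 and -0.76 with EIF2C2 cDNA. Its highest level was 0.34, in My5/CRBN cells at Len72hrs, and its lowest outside sh72 was -0.89, in My5/LV cells at Len120hrs.

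**Figure D1:**
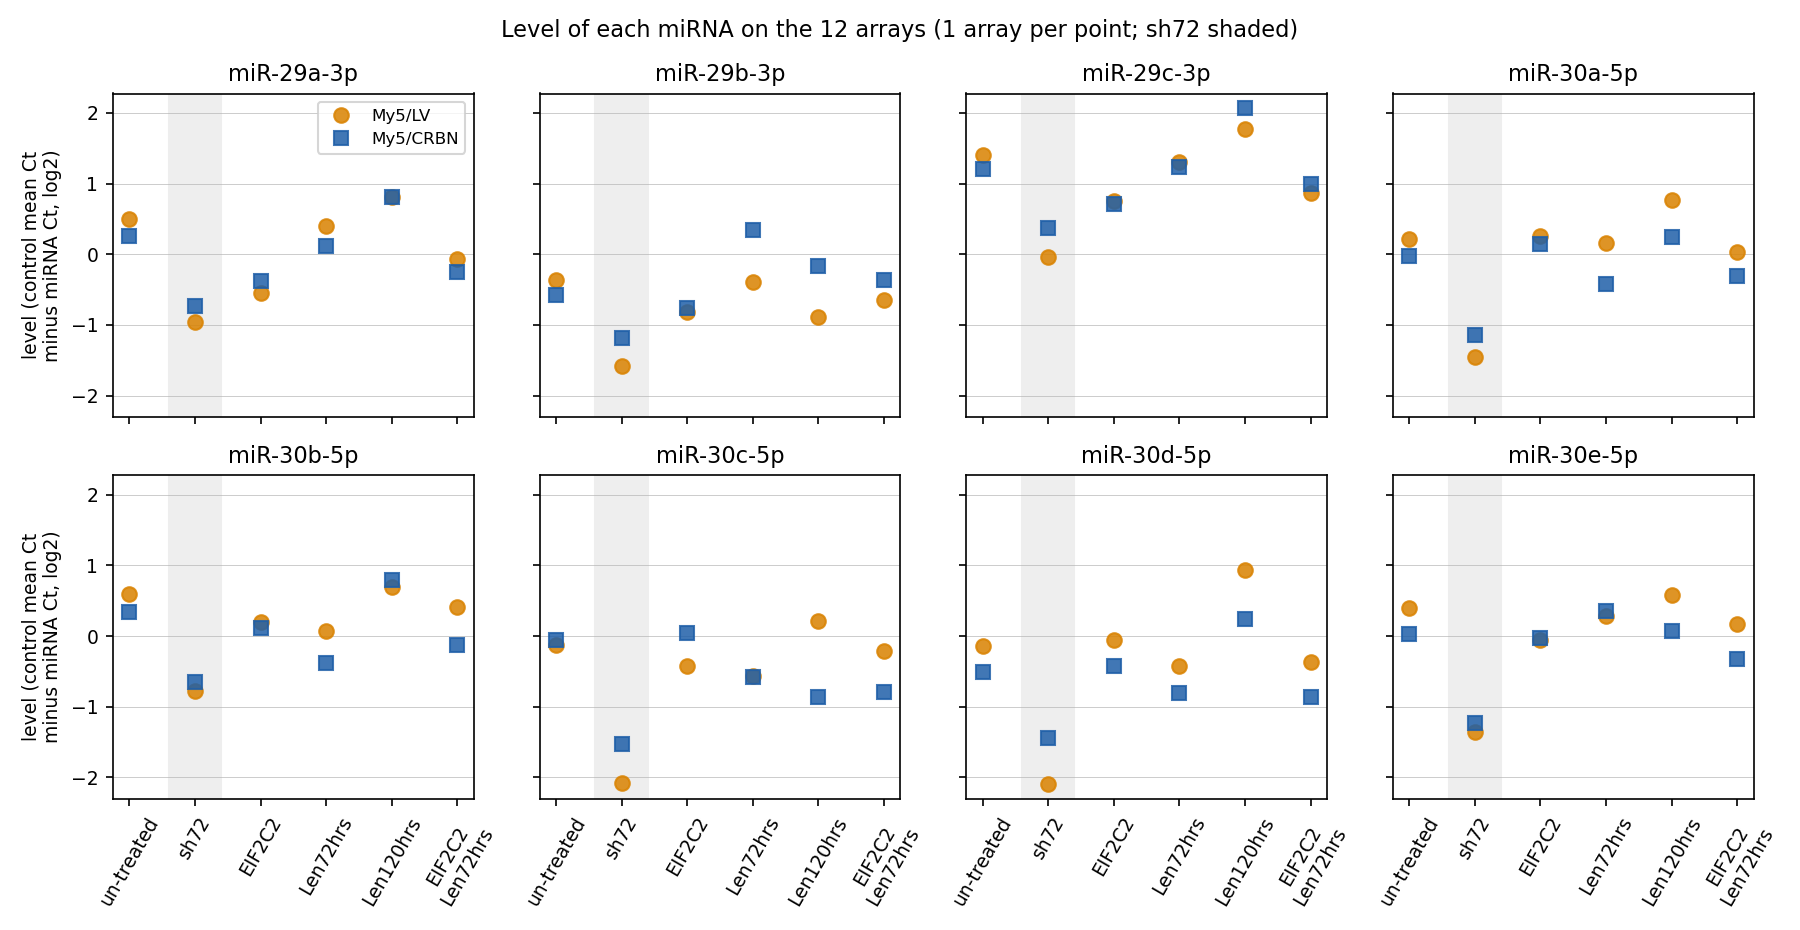
Level of each of the 8 members on the 12 arrays (mean Ct of the 6 control wells minus Ct of the miRNA, log2), with a circle for My5/LV and a square for My5/CRBN and 1 array per point, so that there are no error bars. In every panel the 2 sh72 arrays (shaded) are the lowest, by 0.18 (miR-29a-3p) to 0.90 (miR-30e-5p) below the next array.

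To test the effect of a treatment over both lines, a linear model with terms for treatment and line was fitted with limma to the 314 assays, and p-values were adjusted over all of them by the Benjamini-Hochberg method. In this model the error is the unequal response of the lines, which are the only repeats. For each assay limma draws it toward that of other assays of like level, with 10.8 prior and 5 residual degrees of freedom. A p-value thus rests on the spread between the lines, partly borrowed from other assays, and not on that between cultures. A response within 1 line has no test. After sh72, 8 of the 8 members were lower than in un-treated cells at an adjusted p under 0.05 by limma, against 40.4% of all assays tested, of which 127 were lower and 3 higher. The decrease of hsa-miR-30c-5p was the largest of the members (log2 fold change -1.70 ± 0.37, SE, limma adjusted p = 0.00242). Those of hsa-miR-30e-5p (-1.51 ± 0.30, limma adjusted p = 0.00178), hsa-miR-30d-5p (-1.45 ± 0.34) and hsa-miR-30a-5p (-1.39 ± 0.31) followed. The smallest of the family was that of hsa-miR-30b-5p (-1.18 ± 0.30, limma adjusted p = 0.00522). Among the miR-29 members the log2 fold change was -1.22 ± 0.29 for hsa-miR-29a-3p, -1.14 ± 0.30 for hsa-miR-29c-3p and -0.92 ± 0.32 for hsa-miR-29b-3p, whose limma adjusted p of 0.0284 was the highest of the 8. The 95% intervals of the members overlapped, and differences between them were not tested.

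The decrease of the families was larger than the median of all assays and close to that of other miRNAs of like Ct. The members had a median of -1.31 (log2 fold change), and the 314 assays one of -0.76. Mean Ct was taken on the 8 arrays that were neither sh72 nor un-treated, a choice made after the values were seen, and 19 other assays lay within the members' range of 18.8 to 20.4. Their median log2 fold change was -1.44, and 18 of the 19 were lower by the same limma test. Most miRNAs at this Ct thus shared the decrease, and a difference between them and the families was not tested.

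**Figure D2:**
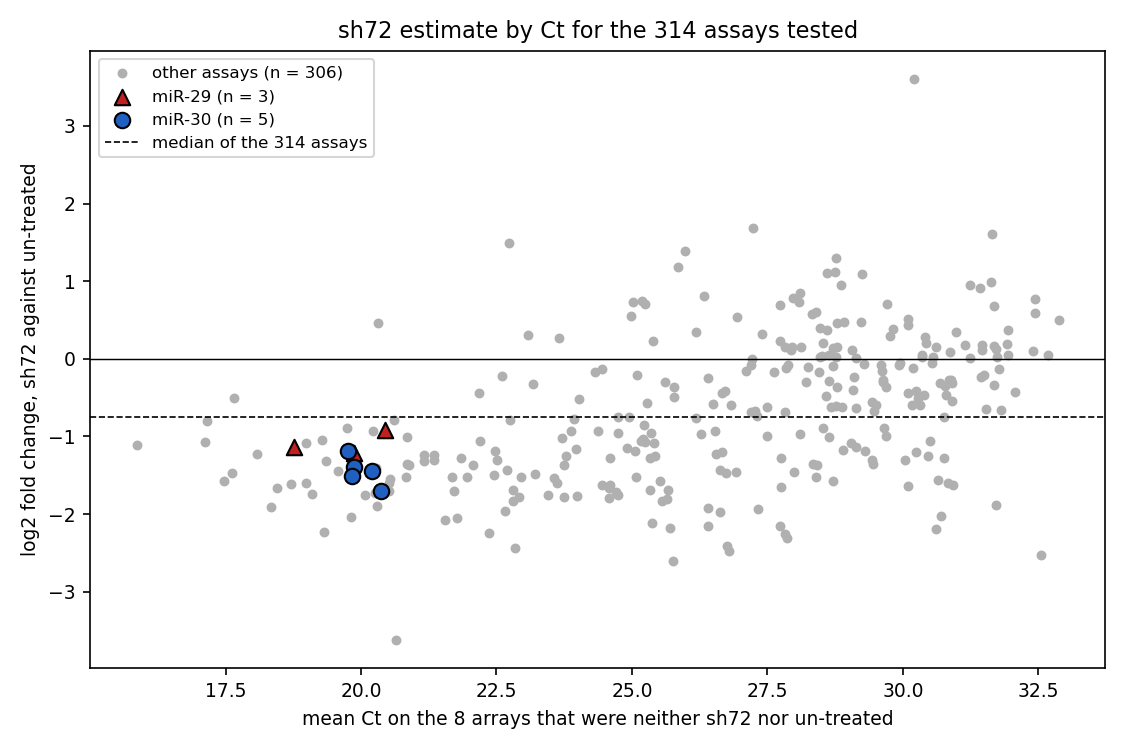
Log2 fold change after sh72 (limma, both lines) against mean Ct on the 8 arrays outside the comparison, for the 314 assays tested, with miR-29 as triangles, miR-30 as large circles and the other assays in grey. The 8 members lie at Ct 18.8 to 20.4 and between -1.70 and -0.92, among other assays of like Ct and below the dashed median of -0.76.

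The values of the decrease were larger in My5/LV than in My5/CRBN cells for each of the 8 members. In My5/LV cells, 4 of the 8 members, hsa-miR-30a-5p, hsa-miR-30c-5p, hsa-miR-30d-5p and hsa-miR-30e-5p, were at least 3 fold lower after sh72, as were 23.7% of all miRNA assays. In My5/CRBN cells, this held for 0 of the 8 members and 12.9% of all assays. In medians, the log2 fold change was -1.45 for miR-29 and -1.76 for miR-30 in My5/LV cells, and -0.84 and -1.13 in My5/CRBN cells. The SD of single control wells was 0.51 and 0.30, which is no measure of the spread between cultures. Whether the lines differed in their response was not tested, since each has 1 array per treatment.

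The choice of normaliser decided the test of sh72. RNU6, 1 of the control wells, stood 0.98 above the mean of the control wells in the My5/LV comparison and 0.45 above it in the My5/CRBN comparison, in level after sh72 relative to un-treated. With the mean Ct of the 314 assays as normaliser (the global mean), which moves the median of all assays from -0.76 to -0.05, 0 of the 8 members passed the limma test (adjusted p from 0.109 to 0.633, 2 of 8 at an unadjusted p under 0.05), while all 8 estimates were still below 0, with a median of -0.60. The sh72 arrays were then the lowest for 2 of the 8 members. Without the array of My5/LV with sh72, 1 of the 8 members passed (hsa-miR-30e-5p), and the log2 fold change of hsa-miR-30d-5p moved from -1.45 to -0.89. Without that of un-treated My5/LV, 4 of the 8 passed, and hsa-miR-29b-3p moved from -0.92 to -0.60. The call of hsa-miR-29b-3p was also lost without the array of My5/CRBN with sh72 (limma adjusted p = 0.0761) and when the variance was not given a trend with level (limma adjusted p = 0.068). With the 5 SNORD wells 7 members were lower (all but hsa-miR-29b-3p), as were 106 of the 314 assays. With RNU6 alone 8 members were lower, as were 180 assays. A shift of the control wells and a decrease of most miRNAs cannot be told apart from these arrays.

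**Figure D3:**
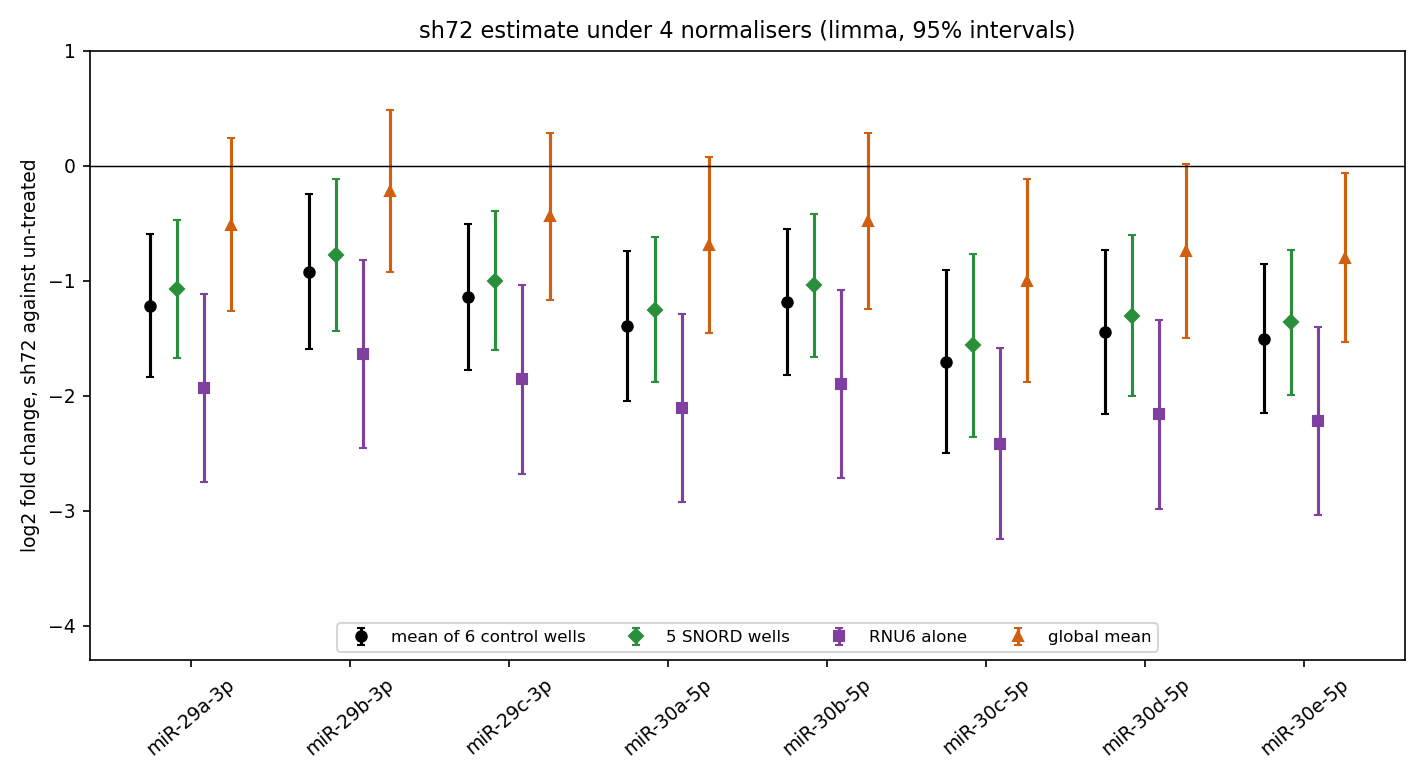
Log2 fold change after sh72 (limma estimate over both lines, bars are 95% intervals) of each member under 4 normalisers. All 32 estimates lie below 0, the RNU6 estimates are the lowest, and with the global mean they are nearest to 0, with 6 of the 8 intervals reaching past 0.

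No member passed the test after EIF2C2 cDNA. By limma, 0 of the 8 members differed from un-treated cells, and so did 0 of the 314 assays (0%), with 1 member and 33 assays at an unadjusted p under 0.05. That member was hsa-miR-29a-3p, with a log2 fold change of -0.84 ± 0.29 (SE, limma adjusted p = 0.26), and values of -1.04 (My5/LV) and -0.64 (My5/CRBN) within the lines. The median log2 fold change of miR-29 was -0.65 and -0.50 in the lines, and that of miR-30 -0.29 and 0.08, beside an SD of the control wells of 0.41 and 0.56. The 95% interval of the estimate was -1.46 to -0.22 for hsa-miR-29a-3p and -0.54 to 0.76 for hsa-miR-30a-5p on the log2 scale. Past 3 fold were 0 members in either line, and 6.72% (My5/LV) and 8.33% (My5/CRBN) of all assays.

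Cells with EIF2C2 cDNA and cells with sh72, which were meant to move AGO2 in opposite directions and were both infected, were also compared with each other. All 5 miR-30 members were higher with EIF2C2 cDNA than with sh72 by limma, and 0 of the 3 miR-29 members were. Over all assays 35% were higher, 110 of 314, and 1 was lower. The log2 fold change was 1.61 ± 0.37 (SE) for hsa-miR-30c-5p, 1.52 ± 0.34 for hsa-miR-30d-5p, 1.50 ± 0.31 for hsa-miR-30a-5p, 1.25 ± 0.30 for hsa-miR-30e-5p and 0.87 ± 0.30 for hsa-miR-30b-5p, with limma adjusted p from 0.00192 to 0.0326. For hsa-miR-29b-3p it was 0.60 ± 0.32, for hsa-miR-29c-3p 0.57 ± 0.30 and for hsa-miR-29a-3p 0.38 ± 0.29, with limma adjusted p from 0.165 to 0.385. The difference between the families was not itself tested. At least 3 fold higher were 3 of the 8 members in My5/LV cells (hsa-miR-30a-5p, hsa-miR-30c-5p and hsa-miR-30d-5p), where 22.3% of all assays were, and 0 in My5/CRBN cells, where 10.2% were. With the global mean as normaliser 0 members passed the limma test, where 19 of the 314 assays were higher and 18 lower. The miR-29 estimates then turned below 0 (-0.30 for hsa-miR-29a-3p, -0.078 for hsa-miR-29b-3p and -0.11 for hsa-miR-29c-3p). Without the array of My5/LV with sh72, 0 members passed, and hsa-miR-30d-5p moved from 1.52 to 0.96 (log2 fold change). Without that of My5/CRBN with EIF2C2 cDNA, 3 passed. The call of hsa-miR-30b-5p was lost without any 1 of the un-treated arrays, the arrays with EIF2C2 cDNA (alone or with lenalidomide) or that of My5/LV with sh72, and without a variance trend (limma adjusted p = 0.0777).

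**Figure D4:**
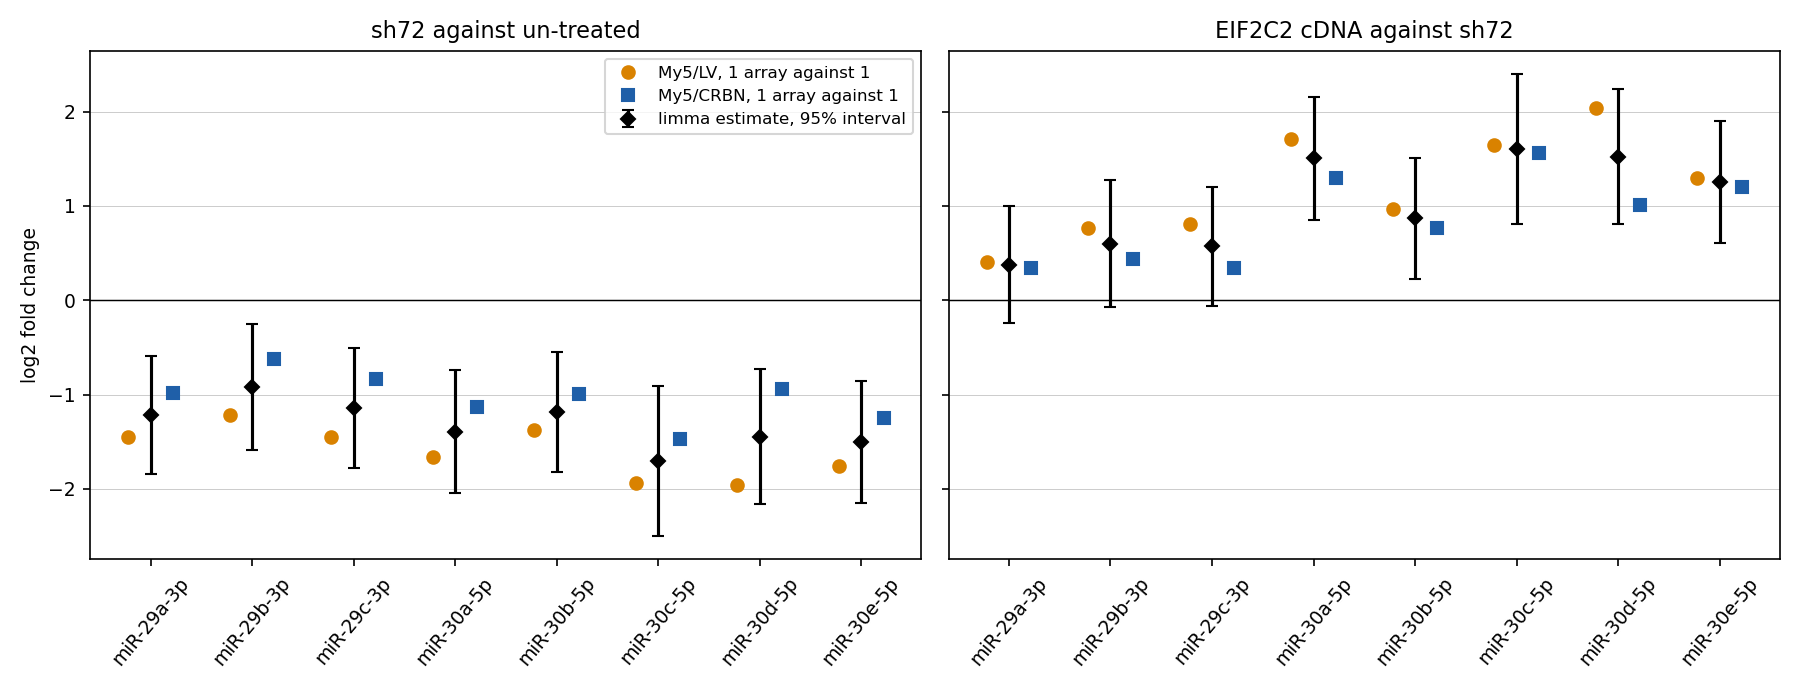
Log2 fold change of each member for sh72 against un-treated cells (left) and EIF2C2 cDNA against sh72 (right). Diamonds are limma estimates over both lines with 95% intervals, circles My5/LV and squares My5/CRBN (1 array against 1). On the left all intervals lie below 0. On the right the 5 miR-30 intervals lie above 0 and the 3 miR-29 intervals reach past 0.

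A difference between miRNAs on the same array does not depend on the normaliser. The mean level of the miR-30 members minus that of the miR-29 members was -0.33 and -0.34 in the un-treated cells of both lines. It was -0.69 and -0.68 after sh72, and 0.18 and 0.11 with EIF2C2 cDNA, the 2 highest values of the 12 arrays. The lowest values were not those of sh72 but -0.93 and -0.81, of My5/CRBN at Len72hrs and Len120hrs, where My5/LV had -0.53 and 0.07. With EIF2C2 cDNA and lenalidomide it was -0.05 and -0.61, the latter below un-treated My5/CRBN. The lines thus lay close together un-treated, after sh72 and with EIF2C2 cDNA, and farther apart on the arrays with lenalidomide. These values are a description without a test.

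No member passed the test after lenalidomide for 72 h. By limma 0 of the 8 members and 0 of the 314 assays (0%) differed from un-treated cells, with 0 members and 13 assays at an unadjusted p under 0.05. The estimate farthest from 0 was that of hsa-miR-30b-5p (-0.63 ± 0.30, SE, limma adjusted p = 0.93). No member was past 3 fold in My5/LV cells, where 1.08% of assays were, or in My5/CRBN cells, where 11.6% were. In My5/CRBN cells, the lenalidomide-sensitive line, hsa-miR-29b-3p stood 0.91 above the un-treated array while hsa-miR-29a-3p and hsa-miR-29c-3p stood at -0.14 and 0.02, beside a control-well SD of 0.22.

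At 120 h of lenalidomide 0 of the 8 members differed from un-treated cells by limma, where 11.5% of all assays did (10 higher and 26 lower). At an unadjusted p under 0.05 there was 1 member, hsa-miR-30d-5p, with a log2 fold change of 0.91 ± 0.34 (SE, limma adjusted p = 0.099). That of hsa-miR-29c-3p was 0.61 ± 0.30 (limma adjusted p = 0.229). In each line 7 of the 8 members stood above the un-treated array, and the exception was hsa-miR-29b-3p (-0.53) in My5/LV and hsa-miR-30c-5p (-0.81) in My5/CRBN. Past 3 fold were 0 members in either line, and 18.5% of all assays in My5/LV and 18.5% in My5/CRBN. Against 72 h, 1 of the 8 members was higher by limma at 120 h, where 2.87% of all assays were higher. It was hsa-miR-30d-5p, by 1.20 ± 0.34 (limma adjusted p = 0.0291). That call was lost without either un-treated array, either Len72hrs array or the Len120hrs array of My5/LV, and when the variance was not given a trend with level.

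Within the families the members did not keep 1 ratio over lenalidomide. The level of hsa-miR-29c-3p minus that of hsa-miR-29b-3p was 1.76 and 1.78 in the un-treated cells, 1.70 and 0.89 at Len72hrs, and 2.67 and 2.23 at Len120hrs, the highest values of the 12 arrays. The level of hsa-miR-29c-3p minus that of hsa-miR-29a-3p, whose sequences differ by 1 base, stayed between 0.91 and 1.31 on all arrays. In the miR-30 family, hsa-miR-30d-5p minus hsa-miR-30c-5p was -0.01 and -0.45 un-treated and 0.72 and 1.10 at Len120hrs, again the highest of the 12. Each of these values rests on single wells, and they were chosen after the values were seen.

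No member passed the test after EIF2C2 cDNA with lenalidomide for 72 h. By limma 0 of the 8 members differed from un-treated cells, where 0.318% of all assays did, and 0 of 8 from lenalidomide alone, where 0% did. At an unadjusted p under 0.05 there were 0 members in both comparisons, and 20 and 27 of the 314 assays. The estimates lay between -0.54 for hsa-miR-29a-3p and -0.04 for hsa-miR-29b-3p against un-treated cells, and between -0.48 for hsa-miR-29b-3p and 0.29 for hsa-miR-30b-5p against lenalidomide alone. In neither line was a member past 3 fold, where 7.53% (My5/LV) and 5.11% (My5/CRBN) of all assays were. RNU6 stood 1.16 above the mean of the control wells in the My5/LV comparison with un-treated cells and 0.68 above it in that of My5/CRBN. With RNU6 alone as normaliser 7 of the 8 members were lower than in un-treated cells, as were 119 of the 314 assays. Against lenalidomide alone 4 of the 8 members were lower, as were 141 of the 314 assays.

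No member passed the test of My5/CRBN against My5/LV cells. Over all treatments 0 of the 8 members differed between the lines by limma, where 6.69% of all assays did (14 higher and 7 lower in My5/CRBN), and 0 members and 44 assays had an unadjusted p under 0.05. The estimate farthest from 0 was 0.33 ± 0.18 (SE) for hsa-miR-29b-3p (limma adjusted p = 0.423). All 5 miR-30 estimates were below 0, between -0.28 for hsa-miR-30d-5p and -0.10 for hsa-miR-30c-5p. The 95% interval was -0.69 to 0.14 for hsa-miR-30d-5p and -0.06 to 0.72 for hsa-miR-29b-3p.

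The opposite arms of the hairpins were read by 5 further assays. They are shown here because the arm of a hairpin that is less often loaded comes from the same precursor as the main arm. For hsa-miR-29b-2-5p (from MIR29B2) and hsa-miR-30c-1-3p (from MIR30C1) this holds in part. The assays of their main arms also read MIR29B1 and MIR30C2. The sequence of hsa-miR-30d-3p is not reported here, and those of the other 4, with the seed in capitals, were taken from RefSeq (GRCh38.p14).
hsa-miR-29a-5p: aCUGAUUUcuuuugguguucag
hsa-miR-29b-2-5p: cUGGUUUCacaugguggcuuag
hsa-miR-30c-1-3p: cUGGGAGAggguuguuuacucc
hsa-miR-30e-3p: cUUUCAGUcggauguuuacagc

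Of the 5 arms, 4 were under Ct 35 on all arrays, and hsa-miR-30c-1-3p, with a Ct of 29.6 to 35.4, was not tested. After sh72, 0 of these 4 were lower by limma, where 40.4% of all assays were, and 2 of 4 had an unadjusted p under 0.05, as had 153 of the 314 assays. The log2 fold change was -1.02 ± 0.45 (SE, limma adjusted p = 0.084) for hsa-miR-30e-3p, -0.93 ± 0.38 (limma adjusted p = 0.0612) for hsa-miR-29a-5p, -0.60 ± 0.39 for hsa-miR-29b-2-5p and 0.15 ± 0.45 for hsa-miR-30d-3p. With EIF2C2 cDNA against sh72, hsa-miR-29a-5p was higher by 1.52 ± 0.38 (limma adjusted p = 0.00608), and it was the only arm of the 4 past the threshold, where 35% of all assays were higher. The difference between the arms of hsa-miR-30d (5p minus 3p) was 7.67 and 7.76 in un-treated cells and 5.62 and 6.62 after sh72, the 2 lowest of the 12 arrays. That between the arms of hsa-miR-29a (3p minus 5p) was 7.15 and 7.43 un-treated, 5.96 and 5.78 with EIF2C2 cDNA, and 6.47 and 6.55 with EIF2C2 cDNA and lenalidomide. The 4 arrays with EIF2C2 cDNA thus had the lowest values of this difference, which does not depend on the normaliser. For the other arms, neither the sh72 arrays nor those with EIF2C2 cDNA were together the lowest. For hsa-miR-30e (5p minus 3p) the difference was 4.20 and 4.11 un-treated, 3.75 and 3.59 after sh72, and lowest in My5/CRBN at Len72hrs (3.07). For hsa-miR-29b (3p minus 2-5p) it was 6.29 and 6.00 un-treated, and 5.41 and 6.23 after sh72. For hsa-miR-30c (5p minus 1-3p) it was 11.89 and 13.05 un-treated, and 9.86 and 13.03 after sh72. Those of hsa-miR-29b and hsa-miR-30c set a main arm from a pair of loci against an opposite arm from a single locus. None of the differences between arms was tested, and the arms lie several cycles apart in Ct.

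**Figure D5:**
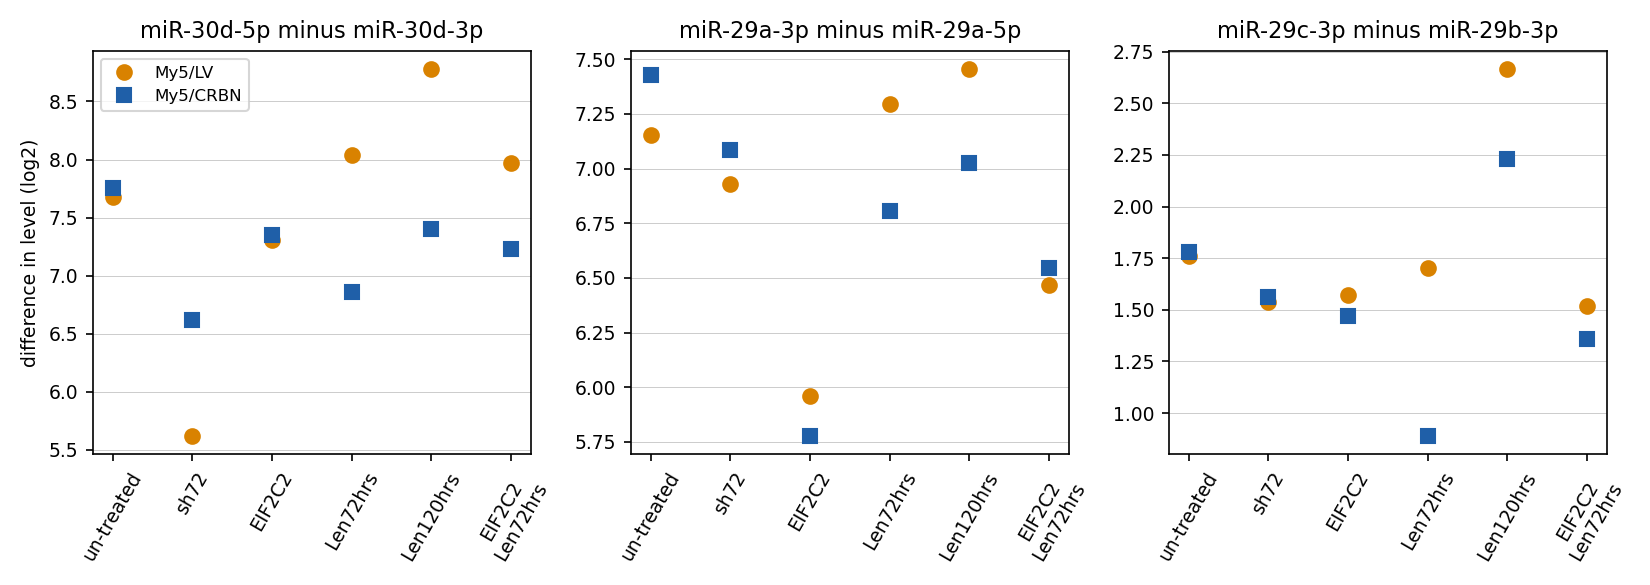
Difference in level (log2) between assays on the same array, by treatment, with a circle for My5/LV and a square for My5/CRBN and a scale of its own in each panel. The difference between the arms of miR-30d is lowest after sh72 (5.62 and 6.62), that between the arms of miR-29a is lowest with EIF2C2 cDNA (5.96 and 5.78), and miR-29c-3p minus miR-29b-3p is highest at Len120hrs (2.67 and 2.23). Differences between the other arms, given in the text, are not drawn.

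Other miRNAs that are known to repress PRDM1 or MCL1 were read beside the families after sh72. Of 11 miRNAs known to target PRDM1, that is let-7a to let-7g and let-7i, hsa-miR-98-5p, hsa-miR-9-5p and hsa-miR-125b-5p, 11 were lower by limma, with log2 fold changes of -1.53 at the median and from -2.44 for hsa-miR-98-5p to -1.24 for hsa-let-7b-5p. Of 3 that are known to target MCL1, 1 was lower, hsa-miR-101-3p (-1.54, limma adjusted p = 0.00188), and hsa-miR-133b and hsa-miR-193b-3p had estimates of -0.78 and -0.75. The share over all assays was 40.4%, as above. In the members' range of mean Ct, 18 of 19 other assays were lower, with a median of -1.44, among them let-7a, let-7d and let-7g. Mean Ct of the 11 on the same 8 arrays ran from 18.7 (hsa-let-7f-5p) to 23.7 (hsa-miR-9-5p), partly outside that range. Most of the 11 are let-7 miRNAs, and whether the lists differ from other assays of like Ct was not tested. With EIF2C2 cDNA against sh72, 7 of the 11 were higher, with a median of 0.96, and 1 of the 3, where 35% of all assays were higher, with a median of 0.68. After lenalidomide for 120 h 0 of the 11 and 0 of the 3 differed from un-treated cells, where 11.5% of all assays did.

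The miRNAs whose levels followed each family most closely over the 12 arrays were named by Pearson's r with the mean level of the family, among the 306 other assays under Ct 35 on all arrays. For miR-29 they were hsa-miR-181a-5p (r = 0.94), hsa-miR-181c-5p (r = 0.93) and hsa-miR-181b-5p (r = 0.92). For miR-30 they were hsa-miR-130b-3p (r = 0.98), hsa-miR-103a-3p (r = 0.97) and hsa-let-7g-5p (r = 0.97). All assays share the arrays and the normaliser, and the median r over the 306 was 0.38 for both families, so these values are a description of likeness only. With the global mean as normaliser 1 of the 3 named for miR-29 and 2 of the 3 for miR-30 were named again.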

How the data were processed

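Ct values of 12 miScript miRNA PCR Arrays were used, as deposited by the authors with no normalisation and 1 array per condition. A deposited table of fold changes holds the authors' own ratios of 11 arrays to un-treated My5/LV, made with online software of the kit's maker, and was not used. Groups were taken from the labels. Undetermined wells and those past Ct 35 were given a Ct of 35, and levels were taken against the mean of 6 control wells. limma 3.58.1 in R 4.3.3 (treatment plus line, eBayes with trend, Benjamini-Hochberg, threshold 0.05) was run on the 314 assays under Ct 35 on all arrays, with 5 residual degrees of freedom, and tested on simulated data. The members of both families, the arms and the lists were chosen by name, with earlier results of these data known. Named were the 8 members, their opposite arms, other miRNAs known to target PRDM1 or MCL1, and the 3 assays most like each family. Python 3.11.15 with NumPy 2.4.6, pandas 2.3.3 and Matplotlib 3.10.9 was used. The alternatives were the global mean, RNU6 or 5 SNORD wells as normaliser, a Ct cap of 32, all miRNA assays, no variance trend, and leaving out each array.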

Additional observations from a re-analysis of the deposited data

Results flagged for a closer look

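After lenalidomide for 120 h, hsa-miR-29b-3p stood on opposite sides of the un-treated array in the 2 lines, at -0.53 (log2 fold change) in My5/LV and 0.40 in My5/CRBN. Both exceeded the SD of the control wells in their own comparison, 0.41 and 0.22, and My5/LV minus My5/CRBN was -0.94. The difference was not tested, since each line has 1 array per treatment. Among the members with opposite signs in the 2 lines, over all treatments, this was the only case in which both values exceeded that SD. Opposite signs without regard to size were seen for 2 of the 8 members at Len120hrs, 3 at Len72hrs, 1 with EIF2C2 cDNA, 1 with EIF2C2 cDNA and lenalidomide, and 0 after sh72.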

How the results depend on the processing

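With the global mean as normaliser, 0 members passed the test for sh72 against un-treated cells, where 20 of the 314 assays were higher and 24 lower. For EIF2C2 cDNA against sh72 0 members passed, with 19 assays higher and 18 lower. For lenalidomide 120 h against un-treated cells 1 member passed, with 19 assays higher and 32 lower. For 120 h against 72 h 3 members passed, with 37 assays higher and 39 lower. The miR-29 members turned below 0 in EIF2C2 cDNA against sh72 (-0.30 for hsa-miR-29a-3p, -0.078 for hsa-miR-29b-3p and -0.11 for hsa-miR-29c-3p), the members at least 3 fold lower after sh72 and at least 3 fold higher with EIF2C2 cDNA than with sh72 in My5/LV cells fell to 0 each, the sh72 arrays were lowest for 2 members, and 1 of the 3 miRNAs most like miR-29 was named again. With RNU6 alone, 7 members passed for EIF2C2 cDNA with lenalidomide against un-treated cells, where 119 of the 314 assays were lower. Against lenalidomide alone 4 members passed, where 141 assays were lower. In My5/LV cells 8 members and 2 opposite arms were then at least 3 fold lower after sh72, and 1 and 2 members were past 3 fold with EIF2C2 cDNA without and with lenalidomide. In My5/CRBN cells 2 members and 1 opposite arm were at least 3 fold lower after sh72, and 1 member was at least 3 fold higher with EIF2C2 cDNA than with sh72. With the 5 SNORD wells, 2 members were at least 3 fold lower after sh72 in My5/LV cells. Without a variance trend 0 members passed for 120 h against 72 h, where 0 assays were higher and 31 lower. For sh72 7 members passed (hsa-miR-29b-3p was lost), with 119 assays lower and 3 higher. For EIF2C2 cDNA against sh72 4 passed (hsa-miR-30b-5p was lost), with 102 assays higher and 1 lower. Leaving out each array gave 1 to 8 members for sh72, 0 to 5 for EIF2C2 cDNA against sh72, 0 to 1 for 120 h against 72 h, and 0 to 0 for the other 6 tests. A lone array left in a treatment was assumed to vary like the others. The cause of these changes was not tested. Of the counts, 210 stayed within 1.5 times of the main value under an alternative and 28 did not. Counts of 0 that stayed at 0 are among the 210, and 6 of the limma tests had 0 members in the main analysis. The 210 is therefore no measure of how firm the counts above 0 are. By replicate number, no paired analysis was possible because each condition has 1 array. Treatments were paired by line, which is a term of the model. The test on all miRNA assays moved no count of members by over 1.5 times. A Ct cap of 32 was applied to the fold changes within and between lines and not to the limma test. It could not move a count of members, since their highest Ct was 23.1.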
